A study of Mus musculus with 6 samples.

Results

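Type I interferon stimulated genes are the genes that cells switch on when interferon alpha or beta binds its receptor. A list of 39 such mouse genes was followed through whole mammary tumours, and 36 of them were measured, out of 19937 genes in all. A member was measured when a probe set of the array was annotated to that gene alone. The probe set that covers Isg15 is shared with Gm9706 and the one that covers Oas1g is shared with Oas1a, so neither gene was read, and Ifi44 was not analysed here. Each of the 36 members had 1 such probe set.

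The tumours came from 6 female FVBN mice with the MMTV-PyMT transgene, in which the middle T antigen of polyoma virus is expressed in mammary epithelium from the promoter of mouse mammary tumour virus. Tumour burden was assessed at 75 to 90 days of age, before dosing began, and 1 tumour was taken from each mouse. The vehicle group (3 mice) received DMSO and the TMP195 group (3 mice) received 50 mg/kg of TMP195, an inhibitor of the class IIa histone deacetylases, once a day by injection into the abdomen. The descriptions give the length of dosing as 5 days in one place and as 2 weeks in another. RNA of each whole tumour was hybridised to its own Affymetrix array, and all levels below are log2 intensities of 1 probe set.

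Interferon alpha and beta bind a receptor made of Ifnar1 and Ifnar2, whose kinases Tyk2 and Jak1 phosphorylate Stat2. It joins Irf9 in the complex ISGF3, which binds interferon stimulated response elements in promoters. The products sense foreign nucleic acid, block translation and virus assembly, and feed back on the pathway, with Irf7 amplifying interferon production and Usp18 damping the receptor. In tumours the programme can run in the carcinoma cells and in the immune and stromal cells. Whole-tumour RNA does not tell these apart, nor fewer cells of a type from less RNA per cell.

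Median intensity over all probe sets lay between 44.8 and 46.4 on the 6 arrays, whose small number limits the precision. The 7 epithelial markers fixed for the tissue check, among them Epcam, Krt8 and Krt18, were at intensity percentiles 94.3 to 99.3 of all genes. Vehicle tumour 2 stood apart by 5 skeletal muscle markers, whose mean log2 intensity was 8.41 there and between 4.78 and 5.24 in the other tumours. Fat markers, 5 in number, ranged from 4.61 in TMP195 tumour 2 and 5.80 in vehicle tumour 2 to 7.59 in TMP195 tumour 1 and 8.35 in vehicle tumour 3.

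The interferon stimulated genes moved together from tumour to tumour, and the tumours at the extremes lay in different dosing groups. Each member's log2 intensity was set against its own mean over the 6 tumours, and these centred values were averaged over the 36 members. The average was 0.18 in vehicle tumour 1, -0.56 in vehicle tumour 2 and 0.18 in vehicle tumour 3. It was 0.10 in TMP195 tumour 1, 0.32 in TMP195 tumour 2 and -0.22 in TMP195 tumour 3. Vehicle tumour 2 was thus the lowest of all and TMP195 tumour 3 the next lowest, while the other 4 tumours lay above 0. The vehicle group had a level of -0.068 ± 0.43 (SD, n = 3) and the TMP195 group one of 0.068 ± 0.27 (SD, n = 3), so the groups overlapped widely.

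**Figure D1:**
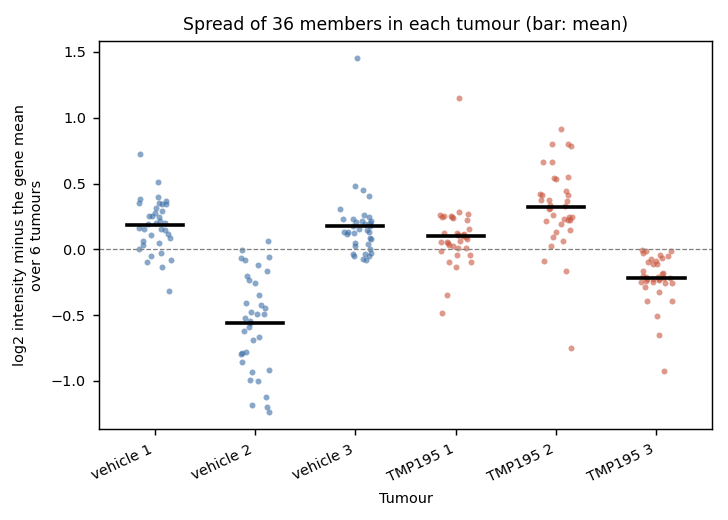
Centred log2 intensity of each of the 36 members (points, 1 per member) in each of the 6 tumours, with the mean over members as a bar, vehicle tumours in blue and TMP195 tumours in red. The bar of vehicle tumour 2 lies at -0.56 and that of TMP195 tumour 2 at 0.32.

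The agreement among members was described by counts. In vehicle tumour 2, 35 of 36 members lay below their own mean, and in TMP195 tumour 3 all 36 did. In TMP195 tumour 2, 33 lay above it, as did 30 in vehicle tumour 1, 29 in vehicle tumour 3 and 28 in TMP195 tumour 1. Vehicle tumour 2 gave the lowest value of the 6 in 26 members (72.2%), beside 18.6% of the 19901 genes outside the list. TMP195 tumour 2 gave the highest value in 23 members (63.9%), beside 25.4% of the other genes, and 17 members (47.2%) showed both features, beside 7.07%. Set against the median of the other members, 18 of 36 (50.0%) lay on the same side of their own mean in every tumour, beside 1.62% of the genes outside the list. A further 12 members matched in 5 of the 6 tumours, among them Trim25, which varied least of all members. Another 5 (Zbp1, Mx1, Dtx3l, Ifi35 and Ifi27l2a) matched in 4 and Ifit2 in 3.

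**Figure D2:**
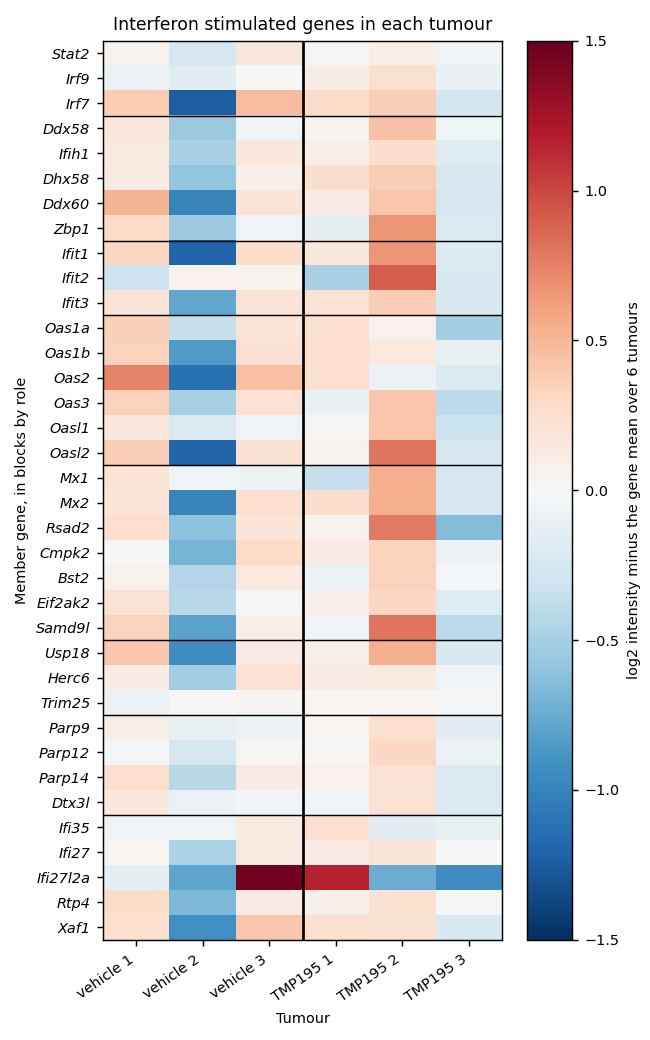
Heat map of the centred log2 intensity of the 36 members (rows, in blocks by role) in the 6 tumours (columns, vehicle left of the black line and TMP195 right of it), red above and blue below the gene's mean over the tumours. The column of vehicle tumour 2 is blue in 35 members and that of TMP195 tumour 3 in all 36.

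The tumours differed more in these genes than in the typical gene. The range over the 6 tumours, highest minus lowest log2 intensity, had a median of 0.95 over the members, or 1.93-fold, beside 0.42, or 1.33-fold, over all genes. The median standard deviation within a dosing group was 0.37 for the members and 0.16 for all genes. Among the members the range ran from 0.13 for Trim25 to 2.38 for Ifi27l2a. Within the vehicle group, tumour 2 lay a median of 0.67 below the mean of tumours 1 and 3, or 1.59-fold. Within the TMP195 group, tumour 2 lay a median of 0.48 above tumour 3, or 1.39-fold, and TMP195 tumour 1 lay between them in 26 members. Among the vehicle tumours, tumour 2 was lowest in 33 of 36 members (91.7%, beside 33.2% of the other genes), with Ifit2, Mx1 and Trim25 as the exceptions. Among the TMP195 tumours, tumour 3 was lowest in 32 (88.9%, beside 27.0%), with Ifit2, Mx1, Bst2 and Ifi35 as the exceptions.

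The question of the study was what TMP195 dosing changes in the tumour as a whole, and none of the interferon stimulated genes passed the test between the groups. With limma, 0 of the 36 members passed an adjusted p of 0.05, as did 0 of all 19937 genes (0% called), and every member had an adjusted p of 1.00. Without adjustment, 0 members and 502 genes (2.52% of all) had a limma p under 0.05. The difference, TMP195 minus vehicle, was above 0 in 29 of 36 members (80.6%), where 49.5% of all genes were above 0. Its median was 0.16 over the members, or 1.12-fold, and -0.0014 over all genes, and it ran from -0.35 for Ifi27l2a to 0.41 for Ifit1. No member separated the groups: 0 of 36 were without overlap on the higher side, where 3.47% of all genes were, and 0 on the lower side, where 3.21% were. None reached 1.5-fold either, which 1.27% of all genes did. The median half-width of the 95% interval was 0.58 for the members, or 1.5-fold, and 0.30 for all genes.

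That 29 members were higher under TMP195 depended on 1 vehicle tumour. Without vehicle tumour 2 the count was 8 of 36 and the median difference -0.084, and without TMP195 tumour 2 the count was 23 and the median 0.031. Without TMP195 tumour 3 all 36 were higher, with a median of 0.26. With both tumours numbered 2 left out, 3 of 36 were higher and the median was -0.21. In the 4 tumours then left, TMP195 tumour 3 was lowest in 32 of 36 members, and vehicle tumour 1 was highest in 19 and vehicle tumour 3 in 12. Array weights, which give less weight to arrays that vary more, left 11 of 36 higher and a median of -0.030.

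**Figure D3:**
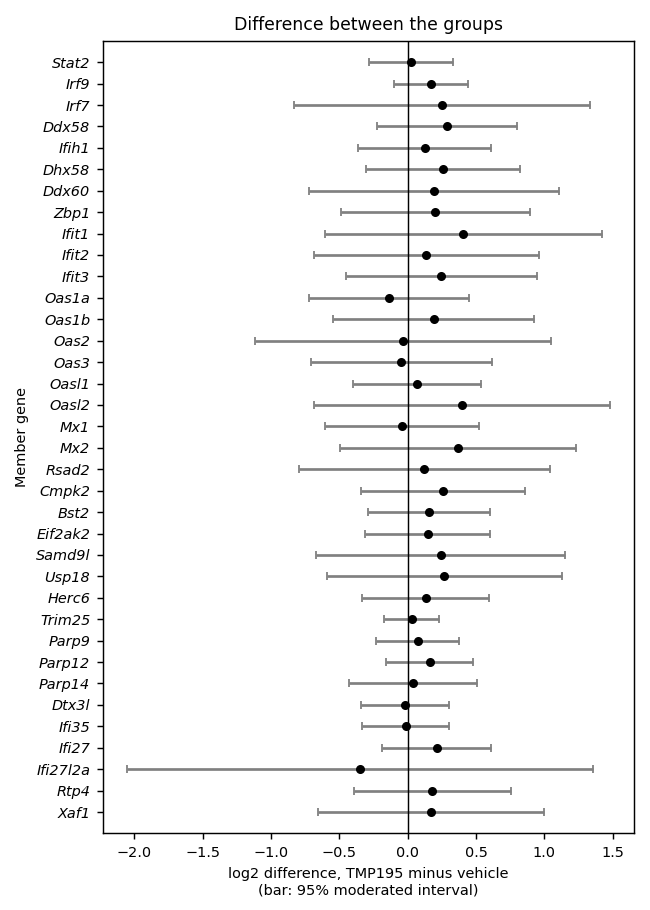
Log2 difference between the groups, TMP195 minus vehicle, for each of the 36 members (points), with its 95% moderated interval from limma (bars, n = 3 against 3). Every interval includes 0, and the widest is that of Ifi27l2a.

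The transcription factors of the pathway came first. Irf7, the factor that amplifies the interferon response and is itself induced by it, stood at 9.24, 7.63 and 9.34 in vehicle tumours 1 to 3 and at 9.14, 9.23 and 8.58 in TMP195 tumours 1 to 3. Vehicle tumour 2 was the low one, 3.17-fold below the mean of the other vehicle tumours, and TMP195 tumour 3 lay between it and the rest. The group difference of 0.25 ± 0.46 (SE) was smaller than the spread among vehicle tumours, whose SD was 0.96. The parts of ISGF3 varied far less. Stat2 was 7.66, 7.35 and 7.79 under vehicle and 7.60, 7.71 and 7.56 under TMP195, and Irf9, its DNA-binding partner, was 7.48, 7.40 and 7.57 under vehicle and 7.68, 7.82 and 7.47 under TMP195. Vehicle tumour 2 was again lowest in both genes, but the range over the 6 tumours was 0.43 for Stat2 and 0.41 for Irf9, against 1.71 for Irf7. The group difference was 0.02 ± 0.13 (SE) for Stat2 and 0.17 ± 0.12 (SE) for Irf9, and the groups overlapped.

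The 5 sensors of foreign nucleic acid were all lowest in vehicle tumour 2, and 4 of them were highest in TMP195 tumour 2. Ddx58 encodes RIG-I, a helicase that detects RNA with a 5′ triphosphate. Vehicle tumours 1 to 3 had levels of 9.05, 8.33 and 8.85, and TMP195 tumours 1 to 3 had 8.94, 9.33 and 8.81, so TMP195 tumour 2 was 2.00-fold above vehicle tumour 2. Ifih1, the MDA5 sensor of long double-stranded RNA, was 8.24, 7.61 and 8.25 under vehicle and 8.20, 8.36 and 7.92 under TMP195. Of all members its profile lay closest to the median of the others, with a root mean square distance of 0.047. The group differences, 0.29 ± 0.22 (SE) for Ddx58 and 0.12 ± 0.21 (SE) for Ifih1, lay within the spread of the tumours. Dhx58, the regulatory helicase LGP2, ran from 5.98 in vehicle tumour 2 to 6.93 in TMP195 tumour 2. Zbp1, which binds Z-form nucleic acid and can start necroptosis, ran from 6.75 to 7.95 between the same tumours. Ddx60, a helicase linked to RIG-I signalling, was the exception at the top, with 4.06 in vehicle tumour 2 and its highest level, 5.57, in vehicle tumour 1.

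Among the IFIT proteins, which bind viral RNA and hinder its translation, Ifit1 and Ifit3 followed the list and Ifit2 did not. Ifit1 stood at 6.53, 5.03 and 6.47 under vehicle and at 6.37, 6.88 and 6.0 under TMP195. Vehicle tumour 2 was 2.77-fold below the mean of the other vehicle tumours, and the whole range was 3.60-fold. The group difference of 0.41 ± 0.43 (SE) was the highest of any member and did not exceed the vehicle SD of 0.85. Ifit3 had the same order at the ends, from 4.65 in vehicle tumour 2 to 5.80 in TMP195 tumour 2. Ifit2 was 5.32, 5.69 and 5.68 under vehicle and 5.15, 6.54 and 5.41 under TMP195. It was high in TMP195 tumour 2 alone, lay slightly above its own mean in vehicle tumour 2, and was lowest in TMP195 tumour 1. Its group difference was 0.14 ± 0.35 (SE), and it was -0.29 without TMP195 tumour 2. In the RefSeq gene order Ifit2 and Ifit3 are next to each other.

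The response element that ISGF3 binds was looked for in the promoters, since members that vary together may share it. RefSeq windows of build GRCm38.p6, from 250 bases before to 50 after the transcription start, were in hand for 24 of the 36 measured members. The motif searched was GAAA, any 2 bases and GAAA again, on both strands, and overlapping matches were each counted. It was found in 11 of these 24 members (45.8%), beside 3.99% of the 27025 genes in the promoter table and 3.44% of its 32851 windows. In 8 of the 11 a match lay upstream of the start. The 160 bases before the start are shown for the 7 members with a match within them, in order to show where the element lies, and for Trim25, the member that varied least and has no match in its window. Each is written 5′ to 3′ on the gene's strand with its matches in capitals, and matches that begin with TTTC have the motif on the other strand. They lie at chr19:34640729-34640888 (plus strand) for Ifit1, chr19:34583369-34583528 (plus) for Ifit3, chr5:120907526-120907685 (minus) for Oas1a and chr5:120777660-120777819 (minus) for Oas3. The others lie at chr8:61927927-61928086 (plus) for Ddx60, chr8:71537473-71537632 (minus) for Bst2, chr12:26456453-26456612 (minus) for Rsad2 and chr11:88999243-88999402 (plus) for Trim25.
Ifit1: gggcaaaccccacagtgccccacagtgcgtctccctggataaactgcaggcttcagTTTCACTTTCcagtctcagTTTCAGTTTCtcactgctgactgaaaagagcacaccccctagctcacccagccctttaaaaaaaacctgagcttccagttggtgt
Ifit3: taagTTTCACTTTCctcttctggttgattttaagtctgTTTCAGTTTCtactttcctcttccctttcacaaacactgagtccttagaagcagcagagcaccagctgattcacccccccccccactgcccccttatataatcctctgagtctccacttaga
Oas1a: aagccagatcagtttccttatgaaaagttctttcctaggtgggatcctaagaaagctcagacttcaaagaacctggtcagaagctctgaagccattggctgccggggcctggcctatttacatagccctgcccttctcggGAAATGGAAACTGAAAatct
Oas3: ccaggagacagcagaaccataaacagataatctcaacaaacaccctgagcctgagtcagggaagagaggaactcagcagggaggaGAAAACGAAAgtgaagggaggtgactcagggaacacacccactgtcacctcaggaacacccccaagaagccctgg
Ddx60: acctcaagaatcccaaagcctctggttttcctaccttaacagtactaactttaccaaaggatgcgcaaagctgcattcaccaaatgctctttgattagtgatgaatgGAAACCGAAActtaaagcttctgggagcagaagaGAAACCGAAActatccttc
Bst2: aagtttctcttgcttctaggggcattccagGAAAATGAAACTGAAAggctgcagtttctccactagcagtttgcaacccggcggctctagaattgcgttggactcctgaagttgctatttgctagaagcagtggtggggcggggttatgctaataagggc
Rsad2: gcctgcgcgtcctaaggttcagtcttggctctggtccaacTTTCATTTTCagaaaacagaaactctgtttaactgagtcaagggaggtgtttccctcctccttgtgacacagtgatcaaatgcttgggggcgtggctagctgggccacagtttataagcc
Trim25: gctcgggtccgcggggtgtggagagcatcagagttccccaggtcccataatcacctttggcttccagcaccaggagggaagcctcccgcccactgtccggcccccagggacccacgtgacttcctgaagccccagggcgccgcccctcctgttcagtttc
With -1 as the base before the start, the matches of Ifit1 begin at -104 and -85 and those of Ifit3 at -156 and -122, all on the other strand. Oas1a and Bst2 hold overlapping matches, and in Ddx60 a pair of identical decamers is separated. The range over the 6 tumours had a median of 0.91 among the 11 members with a match and 0.74 among the 13 without one, and the ranges of both sets overlapped (0.43 to 1.85 with a match, 0.13 to 2.00 without). Irf7 and Oasl2 were among the members without a match in this window and yet varied widely. A match is a description of these letters and was not tested for binding.

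The active enzymes of the OAS family make 2-5A, the messenger that switches on RNase L, when they meet double-stranded RNA. Of the 6 OAS and OAS-like genes measured, 4 were lowest in vehicle tumour 2, while Oas1a and Oasl1 were lowest in TMP195 tumour 3. Oasl2, an OAS-like protein of the mouse, was 8.12, 6.54 and 7.98 under vehicle and 7.79, 8.55 and 7.50 under TMP195. TMP195 tumour 2 was 4.01-fold above vehicle tumour 2, the largest such contrast among the members, and the group difference was 0.40 ± 0.46 (SE). Oas2 was 7.22, 5.37 and 6.95 under vehicle and 6.74, 6.41 and 6.29 under TMP195. Its vehicle tumour 2 was 3.28-fold below the other vehicle tumours, and all 3 TMP195 tumours lay between vehicle tumours 2 and 3, so the group difference was -0.04 ± 0.46 (SE). Oas2 also parted from Oasl2 in TMP195 tumour 2, which was above the gene's mean in Oasl2 and below it in Oas2. Oas1a, with 6.47, 5.77 and 6.31 under vehicle and 6.36, 6.18 and 5.61 under TMP195, was lowest in TMP195 tumour 3. Oas1b, whose protein is truncated in many laboratory strains, ran from 4.23 in vehicle tumour 2 to 5.43 in vehicle tumour 1. Oas3 ran from 3.70 in vehicle tumour 2 to 4.61 in TMP195 tumour 2 and was dim, at intensity percentile 32.3 of all genes. Oasl1, which in mice represses the translation of Irf7, ran from 5.61 in TMP195 tumour 3 to 6.35 in TMP195 tumour 2. Oligoadenylate synthetase genes of 1 cluster can share sequence, so cross-hybridisation between them cannot be told apart from their own signal.

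All 7 antiviral effectors were highest in TMP195 tumour 2, and 5 were lowest in vehicle tumour 2. Eif2ak2, the kinase PKR that halts translation on double-stranded RNA, was 8.07, 7.45 and 7.83 under vehicle and 7.96, 8.16 and 7.67 under TMP195, a group difference of 0.15 ± 0.19 (SE). Bst2, or tetherin, which holds budding virus at the cell surface and also marks plasmacytoid dendritic cells in mice, was 7.10, 6.59 and 7.18 under vehicle and 6.94, 7.37 and 7.02 under TMP195. Its difference was 0.16 ± 0.19 (SE). In both genes vehicle tumour 2 was lowest and the groups overlapped. Cmpk2, a mitochondrial nucleotide kinase, was 6.18, 5.49 and 6.49 under vehicle and 6.31, 6.51 and 6.11 under TMP195, with a difference of 0.26 ± 0.25 (SE). Rsad2, or viperin, which makes a chain-terminating nucleotide and lies next to Cmpk2 in the gene order, was 6.05, 5.17 and 5.97 under vehicle and 5.84, 6.57 and 5.14 under TMP195. Unlike Cmpk2 it was about as low in TMP195 tumour 3 as in vehicle tumour 2, and tumours 2 and 3 of the TMP195 group differed 2.70-fold. Samd9l, an inhibitor of translation, ran from 5.58 in vehicle tumour 2 to 7.18 in TMP195 tumour 2, a 3.03-fold range. Mx2, a dynamin-like GTPase, ran from 4.18 to 5.71 between the same tumours. Its relative Mx1, which is disrupted in many inbred strains, followed only in part, on the list's side in 4 of the 6 tumours. Mx1 was the dimmest member, at percentile 30.7, and stood at 4.28, 4.02 and 4.01 under vehicle and 3.73, 4.63 and 3.83 under TMP195.

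The ubiquitin-like protein ISG15 is attached to other proteins by ligases and removed by Usp18. Usp18 itself, which also blocks signalling at Ifnar2, was 6.78, 5.44 and 6.51 under vehicle and 6.47, 6.93 and 6.14 under TMP195. It followed the list in all 6 tumours, vehicle tumour 2 was 2.30-fold below the other vehicle tumours, and the group difference was 0.27 ± 0.36 (SE). Herc6, the main ISG15 ligase in mice, was 6.87, 6.23 and 6.97 under vehicle and 6.86, 6.89 and 6.71 under TMP195. Here vehicle tumour 2 was low and the other 5 tumours lay within a narrow band, with a group difference of 0.13 ± 0.20 (SE). Trim25, a ligase that acts on RIG-I, was 8.62, 8.70 and 8.75 under vehicle and 8.74, 8.73 and 8.69 under TMP195. It was bright, at percentile 87.4, yet varied by no more than 1.09-fold and differed between the groups by 0.03 ± 0.08 (SE).

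Parp9, Dtx3l and Parp14 are neighbours in the gene order, and Parp9 and Dtx3l form a complex that modifies histones. Parp9 and Dtx3l varied about as much as the typical gene, with ranges of 0.41 and 0.43, and Parp14 more, with 0.66. Dtx3l, a ubiquitin ligase, was 8.60, 8.36 and 8.41 under vehicle and 8.40, 8.67 and 8.24 under TMP195, and was lowest in TMP195 tumour 3, not in vehicle tumour 2. Parp9 had the same extremes, 7.47 in TMP195 tumour 3 and 7.88 in TMP195 tumour 2. Parp14, an ADP-ribosyltransferase, was 8.11, 7.45 and 7.99 under vehicle and 7.93, 8.09 and 7.65 under TMP195, so vehicle tumour 2 was lowest. Parp12, another enzyme of the family that is encoded elsewhere, was 7.69, 7.48 and 7.74 under vehicle and 7.73, 8.03 and 7.63 under TMP195. The group differences were -0.02 ± 0.14 (SE) for Dtx3l, 0.04 ± 0.20 (SE) for Parp14 and 0.16 ± 0.13 (SE) for Parp12, and all 3 overlapped.

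The remaining members held 3 that followed the list and 2 that did not. Ifi27, a small membrane protein, was 8.89, 8.38 and 8.99 under vehicle and 8.98, 9.05 and 8.86 under TMP195, and differed by 0.21 ± 0.17 (SE). Rtp4, a chaperone of membrane receptors, was 8.54, 7.60 and 8.40 under vehicle and 8.35, 8.50 and 8.24 under TMP195, and differed by 0.18 ± 0.24 (SE). In both, vehicle tumour 2 was the low one. Xaf1, which binds the apoptosis inhibitor XIAP, ran from 5.76 in vehicle tumour 2 to 7.08 in vehicle tumour 3. Ifi35, a partner of Nmi, went its own way, with 7.69, 7.68 and 7.87 under vehicle and 7.99, 7.58 and 7.63 under TMP195, so TMP195 tumour 2 was its lowest. Ifi27l2a, the neighbour of Ifi27 in the gene order, had the widest range, 5.20-fold, and lay farthest from the other members, at a root mean square distance of 0.89. Its level was 5.89, 5.23 and 7.47 under vehicle and 7.17, 5.27 and 5.10 under TMP195. It was high in vehicle tumour 3 and TMP195 tumour 1 and low in TMP195 tumour 2, where the list as a whole was highest. The 5 fat markers averaged 6.99, 5.80 and 8.35 (log2) under vehicle and 7.59, 4.61 and 5.69 under TMP195, with the same 3 tumours highest. Adipoq, which encodes adiponectin, was 6.70, 5.02 and 8.62 under vehicle and 7.98, 3.93 and 5.29 under TMP195. The part of fat tissue in the level of Ifi27l2a was not tested.

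**Figure D4:**
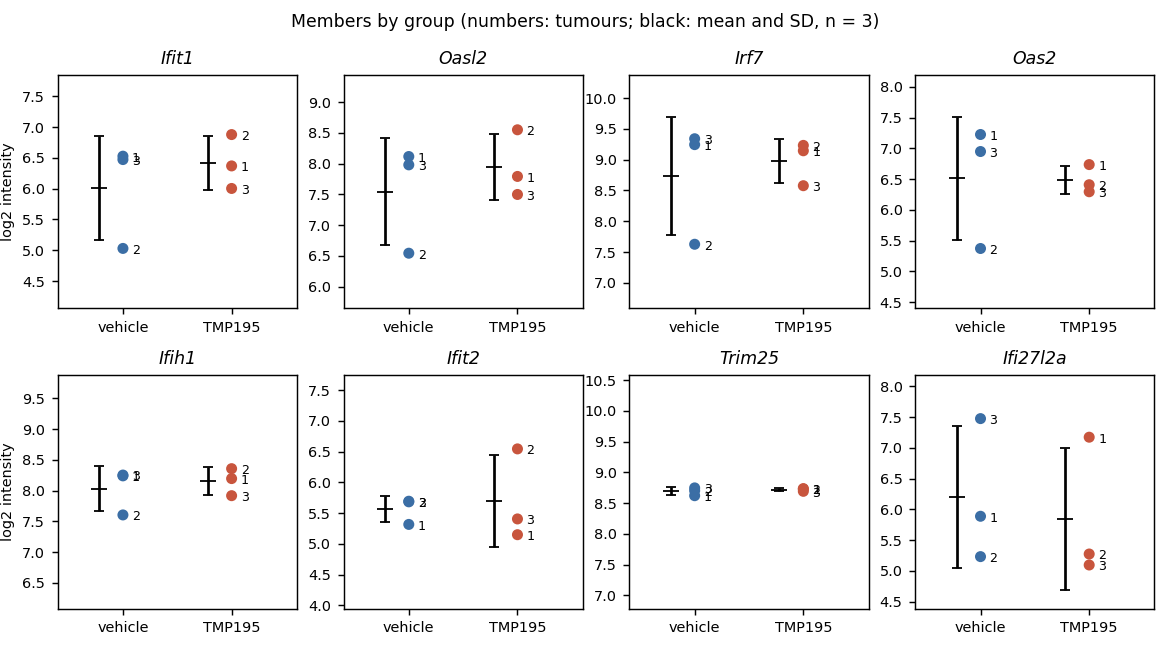
Log2 intensity of 8 members in each tumour (points with the tumour's number, vehicle in blue and TMP195 in red) with the group mean and SD (black, n = 3), each panel spanning the same number of log2 units. Vehicle tumour 2 is the low point in Ifit1, Oasl2, Irf7, Oas2 and Ifih1, Trim25 is nearly flat, and Ifit2 and Ifi27l2a have other orders.

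Genes upstream of the programme had smaller ranges between the tumours, with a median of 0.53 for the ligands, 0.32 for the receptor and kinases and 0.39 for the genes that induce interferon, beside 0.95 for the members. Of 18 interferon alpha, beta and related ligand genes, 14 were measured and 10 of these lay below the 30th percentile of intensity. None passed the test, 8 were higher and 6 lower under TMP195, and the mean over the 14 was 3.79, 3.57 and 3.44 under vehicle and 3.52, 3.65 and 3.59 under TMP195. Ifna13 had the smallest unadjusted p of them. It was 2.63, 2.28 and 2.36 under vehicle and 1.67, 1.94 and 1.85 under TMP195, so that the groups did not overlap, and it differed by -0.60 ± 0.13 (SE) at percentile 7.07 of intensity. With 16 added to each intensity before the log2 the difference was -0.13, so its size depends on how dim signal is scaled. The receptor genes Ifnar1 and Ifnar2 with the kinases Jak1 and Tyk2 averaged from 8.86 in vehicle tumour 2 to 8.99 in TMP195 tumour 2. Of these 4 genes, 1 was lowest in vehicle tumour 2 and 2 were highest in TMP195 tumour 2. Jak1 differed by 0.11 ± 0.12 (SE) and none of the 4 passed. Of 11 measured genes that induce interferon 0 passed and 5 were higher, among them Tlr9 but not Ikbke, a kinase that activates Irf3 and Irf7, which differed by -0.24 ± 0.09 (SE). The mean of the 11 ran from 6.95 in TMP195 tumour 1 to 7.12 in TMP195 tumour 2 and was 7.10 in vehicle tumour 2. Of 8 inhibitors of the pathway or of its nucleic acid triggers 0 passed and 7 were higher, Samhd1 being the exception at -0.16 ± 0.11 (SE). The mean of the 8 ran from 7.19 in vehicle tumour 2 to 7.46 in TMP195 tumour 2. Much of the high mean came from Socs3, which was 7.74 in TMP195 tumour 2 and 6.28 to 6.58 in the other tumours. Of the 8, 2 were lowest in vehicle tumour 2 and 4 were highest in TMP195 tumour 2.

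Other interferon induced genes had the order of the list in part. Of 21 measured, 11 were lowest in vehicle tumour 2 and 12 were highest in TMP195 tumour 2, and the mean was 7.32, 7.05 and 7.39 under vehicle and 7.34, 7.52 and 7.20 under TMP195. None passed the test, 15 were higher and 6 lower under TMP195, and Ifitm1, a membrane protein that blocks virus entry, differed by 0.25 ± 0.14 (SE), or by 0.087 with the mean of its probe sets in place of the brightest. Lgals3bp, a secreted galectin ligand chosen after its values were seen, ran from 9.26 in vehicle tumour 2 to 11.49 in TMP195 tumour 2. The mean of interferon gamma and its targets was 5.63, 5.58 and 5.64 under vehicle and 5.59, 5.86 and 5.62 under TMP195. It was highest in TMP195 tumour 2, like the list, but vehicle tumour 2 was nearly level with TMP195 tumour 1. Of the 9 genes, 2 were lowest in vehicle tumour 2, beside 18.6% of the genes outside the interferon list. In TMP195 tumour 2, 5 were highest, beside 25.4%. The test was passed by 0 of 9, and 7 were higher under TMP195. Cxcl10, a chemokine that attracts T cells, differed by 0.58 ± 0.28 (SE). Ifng itself was dim, at percentile 28.6, with levels from 3.64 to 4.02.

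Markers of the cells that could carry the programme were set beside it. The 7 epithelial markers averaged 10.50, 10.61 and 10.57 under vehicle and 10.58, 10.48 and 10.52 under TMP195, so their mean was highest in vehicle tumour 2. Of these, 0 were lowest in vehicle tumour 2 and 1 was highest in TMP195 tumour 2. The 7 measured T cell markers had mean log2 intensities of 4.44, 4.23 and 4.47 under vehicle and 4.24, 4.70 and 4.34 under TMP195, with 4 lowest in vehicle tumour 2 and 4 highest in TMP195 tumour 2. The 6 natural killer cell markers averaged 3.38, 3.21 and 3.33 under vehicle and 3.10, 3.50 and 3.31 under TMP195, and 4 of them lay below the 30th percentile. The macrophage list of 8 averaged 8.05, 8.01 and 8.22 under vehicle and 7.99, 7.94 and 7.78 under TMP195. None of the 8 was lowest in vehicle tumour 2, and 3 were highest in TMP195 tumour 2, while Mertk (6.17) and Mrc1 (6.68) were lowest there. The mean of the macrophage list was lowest in TMP195 tumour 3, where the interferon list was the next lowest. Adgre1, Csf1r, Cd68, C1qa, C1qb and C1qc were each lowest in TMP195 tumour 3. The 7 measured plasmacytoid dendritic cell markers, from cells known for making interferon alpha, averaged from 5.14 in TMP195 tumour 3 to 5.33 in vehicle tumour 1. Their mean was 5.31 in both tumours numbered 2. The defining marker Siglech ran from 3.92 in vehicle tumour 2 to 4.22 in TMP195 tumour 2, the extremes of the interferon list. It was the only 1 of the 7 lowest in vehicle tumour 2, and 3 were highest in TMP195 tumour 2. Skeletal muscle markers were highest in vehicle tumour 2, as given above, and endothelial markers were lowest there in 4 of 4 (6.91, beside 7.05 to 7.30 elsewhere). The 5 fibroblast markers averaged 9.78, 9.38 and 10.08 under vehicle and 9.93, 9.35 and 9.65 under TMP195, so they were low in both tumours numbered 2, where the interferon list had its opposite extremes, and 3 of the 5 were lowest in vehicle tumour 2. The 5 neutrophil markers had their highest mean in vehicle tumour 2 (4.53, beside 3.97 to 4.34 elsewhere), and S100a8, a calcium-binding protein of neutrophils, was 6.80 there and 4.98 to 5.51 in the other tumours. Conventional dendritic cell markers, 6 in number, averaged between 4.18 and 4.37, and 3 B cell markers between 2.86 and 3.0. The part of these cell types in the interferon levels was not tested.

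**Figure D5:**
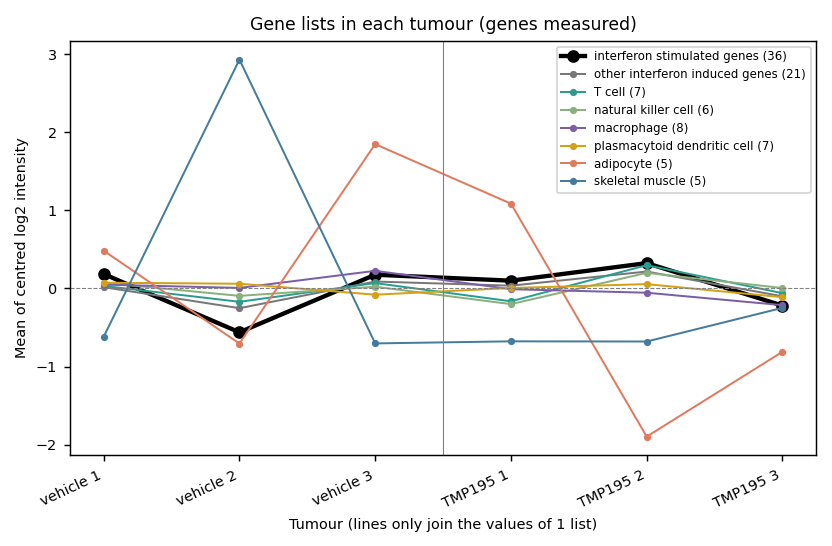
Mean centred log2 intensity of the 36 interferon stimulated genes (black) and of 7 other gene lists in the 6 tumours, with the number of genes measured in each list given in the key. The skeletal muscle list peaks in vehicle tumour 2, where the interferon list is lowest at -0.56, and the fat list is lowest in TMP195 tumour 2, where the interferon list is highest at 0.32. The fat list is also low in vehicle tumour 2 (-0.71) and TMP195 tumour 3 (-0.81), where the interferon list is lowest and next lowest.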

How the data were processed

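The deposited values are array signal intensity, 1 column per tumour and 27359 probe sets. The submitters' processing notes name RMA and Affymetrix Power Tools. Their versions and any filter by the authors were not given in the sources used here. Their scale is not stated and was taken as linear, since all values were above 0 and the highest lay between 8137 and 8873. Normalization of arrays to each other, as RMA usually does, would hide a shift common to most genes.

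Probe sets were named through the platform annotation, with symbols checked by Entrez ID in the RefSeq table of GRCm38.p6. 21784 had 1 symbol, 1620 several and 3955 none. The probe set with the highest mean stood for a gene. Log2 intensities were fitted in limma 3.58.1 (R 4.3.3, lmFit and eBayes), two-sided, over all 19937 genes with Benjamini-Hochberg adjustment and no covariate; SE and intervals are moderated. The fit was tested on simulated data. The list was described by counts and medians beside all genes, without a test of its own. Differences are given for the 2 brightest members of each role and the 1 with the smallest unadjusted p, and for the gene of smallest unadjusted p in each pathway list. Members, lists, tests and alternatives were chosen with earlier results of these data known. Python 3.11.15 with pandas 2.3.3 and matplotlib 3.10.9 was used. Sequences are from RefSeq. A second promoter motif was searched and is not reported here.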

Additional observations from a re-analysis of the deposited data

How the results depend on the processing

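No member and no gene passed an adjusted p of 0.05 in limma under any alternative, nor at 0.10 with the settings of the report. At an unadjusted p under 0.05 limma gave from 243 genes (of 13956, intensity filter) to 938 (of 19937, array weights) over the alternatives. Members with such a p numbered from 0 to 5 of 36. The 5 arose without both tumours numbered 2, where 742 of 19937 genes had such a p. The tumour levels of the list moved by less than the spread within a group with the median of members, median centring, the intensity filter, cyclic loess or without Ifi27l2a, the last pair of which were chosen after seeing the data, and vehicle tumour 2 stayed lowest (-0.58 to -0.53). The count of members on the list's side in every tumour was 18, and 17 with median centring, 20 with cyclic loess and, over the 4 tumours left, 12 without both tumours numbered 2, alternatives also added after seeing the data. The count of members higher under TMP195 was 29 with every other setting that kept all tumours, 11 with array weights, 3 without both tumours numbered 2, and from 8 to 36 with 1 tumour left out. The median difference was -0.030, -0.21 and from -0.084 to 0.28 in the last 3 of these cases, and the cause was not tested. With array weights the sign turned for Stat2 (-0.093), Irf7 (-0.15), Ifih1 (-0.060), Ifit2 (-0.15), Oasl2 (-0.021), Cmpk2 (-0.016), Bst2 (-0.028), Usp18 (-0.018), Herc6 (-0.032) and Parp14 (-0.11). Without both tumours numbered 2 it turned for Stat2 (-0.14), Irf7 (-0.43), Ddx58 (-0.073), Ifih1 (-0.19), Ifit1 (-0.31), Ifit2 (-0.22), Oasl2 (-0.40), Cmpk2 (-0.12), Bst2 (-0.16), Eif2ak2 (-0.14), Usp18 (-0.34), Herc6 (-0.13), Parp12 (-0.034), Parp14 (-0.26), Ifi27 (-0.019) and Rtp4 (-0.18). With 1 tumour left out, differences ran from -0.10 to 0.11 for Stat2, -0.31 to 0.55 for Irf7, -0.090 to 0.24 for Ifih1, -0.083 to 0.67 for Ifit1, -0.29 to 0.41 for Ifit2, -0.61 to 0.32 for Oas2, -0.10 to 0.68 for Oasl2, -0.023 to 0.47 for Cmpk2, -0.027 to 0.27 for Bst2, -0.022 to 0.29 for Eif2ak2, -0.13 to 0.54 for Usp18, -0.098 to 0.27 for Herc6, -0.0056 to 0.058 for Trim25, -0.16 to 0.17 for Parp14, -0.14 to 0.077 for Dtx3l and -0.11 to 0.36 for Rtp4. The other named members kept their sign then but moved widely, from 0.026 to 0.33 for Ifi27 and 0.078 to 0.44 for Ddx58 (both lowest without vehicle tumour 2), and from 0.043 to 0.24 for Parp12 and 0.092 to 0.26 for Irf9 (both lowest without TMP195 tumour 2). Ifna13, Jak1, Ikbke, Samhd1, Ifitm1 and Cxcl10 kept their sign under the alternatives that gave them a value, which the intensity filter did not for Ifna13 nor the fit of every probe set for Ifitm1. With 1 tumour left out they ran from 0.022 to 0.19 for Jak1 (lowest without vehicle tumour 2), 0.28 to 0.76 for Cxcl10 and 0.14 to 0.34 for Ifitm1 (both lowest without TMP195 tumour 2), -0.22 to -0.072 for Samhd1 (nearest 0 without TMP195 tumour 3), -0.29 to -0.18 for Ikbke and -0.68 to -0.50 for Ifna13. Ifitm1 was also 0.10 with array weights, and Cxcl10 0.21 without both tumours numbered 2. The low limits of Irf7, Ifih1, Ifit1 and Oasl2 are those without vehicle tumour 2. With the replicate number as a block (replicate block), the count of members higher stayed at 29 and the median at 0.16, with 0 members called. Same-numbered tumours did not deviate together from their group means (r across genes -0.21, -0.063 and -0.097). Differently numbered tumours had r from -0.18 to 0.34, so r across all genes cannot decide whether the numbers pair tumours.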

Other observations

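Genes outside the list were searched for its order across the tumours, meaning vehicle tumour 2 lowest, TMP195 tumour 2 highest, every tumour on the list's side of the gene's own mean and a range of at least 1 log2 unit. This search and its limits were chosen after the values were seen. Of 19901 genes outside the list, 1506 had that range and 15 had the order, while 17 members had the range and 6 had the order. The 15 genes are Naip5, Lgals9, Gimap5, Pgm5, Lama3, Itgb3, Kitl, Airn, Matn2, Nhs, Setbp1, Arhgef6, Hoxb4, Ntn4 and Mir145a. Lgals9, or galectin-9, is known to be induced by interferons, while Lama3, Matn2 and Ntn4 encode parts of the extracellular matrix and Itgb3 an integrin. Itgb3 had log2 intensities of 9.10, 8.09 and 9.0 under vehicle and 8.87, 9.40 and 8.58 under TMP195. Kitl, the ligand of the receptor Kit, had 8.36, 7.73 and 8.34 under vehicle and 8.54, 8.90 and 8.09 under TMP195. Mir145a, a microRNA gene of smooth muscle, had 4.89, 3.92 and 4.89 under vehicle and 5.10, 6.02 and 4.25 under TMP195. Why these genes have the order of the list was not tested.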
